A study of Mus musculus with 11 samples.

Results

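The intercalated disc is the seam that joins heart muscle cells end to end. Desmosomes tie the intermediate filaments of neighbouring cells together, adherens junctions tie their actin filaments, and gap junctions let the electrical impulse pass. In the heart these structures mix in a hybrid adhesion zone, the area composita. Inherited variants of several desmosomal genes are known causes of arrhythmogenic cardiomyopathy in people. The 10 junction genes described here were Dsp, Pkp2, Jup, Dsg2 and Dsc2 of the desmosome, Cdh2, Ctnna3 and Xirp1 of the adherens junction and area composita, Gja1 of the gap junction and its scaffold Tjp1. They were taken from the count matrix by their GENCODE symbol on GRCm38. Each symbol matched 1 identifier, so the set was 10 of 55487 identifiers, and 10 of 10 passed the low-count filter. All are protein-coding, on chromosomes 7 (Tjp1), 9 (Xirp1), 10 (Gja1 and Ctnna3), 11 (Jup), 13 (Dsp), 16 (Pkp2) and 18 (Dsg2, Dsc2 and Cdh2).

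RNA was sequenced from hearts of female C57BL/6NTac mice that were 8 weeks old at the start and were fed for 24 weeks. Treated obese mice (3 libraries) ate the obesogenic diet, which paired sweetened condensed milk with a solid diet holding 60.3% of its energy as fat. From week 16 they were gavaged on 3 days of each week with dasatinib (5 mg/kg), a tyrosine kinase inhibitor, plus quercetin (50 mg/kg), a plant flavonoid, in a 10% PEG400 carrier. The pair is a senolytic cocktail, meant to clear senescent cells, and the study asked what that clearance does to the obese heart. Obese mice (4 libraries) had the same diet and were gavaged with the carrier alone. Control mice (4 libraries) ate a diet with 10.4% of its energy as fat, and the sources used here do not say whether they were gavaged. All mice were of 1 sex and 1 inbred strain, and the labels do not say whether a library came from 1 animal, and so the p-values below reflect variation among libraries that may partly be technical.

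Library totals ran from 64.2 to 72.3 M counts in treated obese hearts, 52.7 to 67.2 M in obese hearts and 73.1 to 103.3 M in control hearts. The lowest count of any junction gene in any library was 1961, so counting error was small beside the spread between libraries. Heart muscle markers were abundant in every group, with the summed level of 10 cardiomyocyte markers at 83180 to 96900 CPM (counts scaled to library size) in treated obese, 75260 to 97950 CPM in obese and 79290 to 108700 CPM in control hearts. Of these 10 markers, 5 fell in obese against control hearts at an edgeR adjusted p under 0.05. The share that fell was 35.8% among protein-coding genes with a mean of at least 10 CPM, and 15.7% among all genes tested. Atrial markers set 3 libraries apart: the 10 atrial genes summed to 5009 and 8183 CPM in treated replicates 2 and 3 and 3786 CPM in obese replicate 3, against 358 to 864 CPM in the other libraries, and no atrial marker was at 0 in every library. Genes annotated as sense-intronic or TEC (loci awaiting experimental evidence), called the intronic share below, took 0.510% to 0.671% of counts in treated obese, 0.663% to 0.811% in obese and 0.286% to 0.590% in control hearts.

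Promoter windows from RefSeq (build GRCm38.p6) were read for 5 of the 10 genes: Dsp, Jup, Gja1, Tjp1 and Ctnna3. No window was read for Pkp2, Dsg2, Dsc2, Cdh2 or Xirp1, which were also called with diet. Their absence here does not show that RefSeq lacks them. The windows of Dsp, Jup and Gja1 are shown because these are the genes among those 5 that were called with diet. Each line gives 250 bases before the transcript start, 5′ to 3′ on the gene's strand, at chr13:38151044-38151293 (plus strand), chr11:100397791-100398040 (minus strand) and chr10:56377050-56377299 (plus strand). Capitals mark a GC box in Dsp and Jup and a GATA match in Gja1.
Dsp: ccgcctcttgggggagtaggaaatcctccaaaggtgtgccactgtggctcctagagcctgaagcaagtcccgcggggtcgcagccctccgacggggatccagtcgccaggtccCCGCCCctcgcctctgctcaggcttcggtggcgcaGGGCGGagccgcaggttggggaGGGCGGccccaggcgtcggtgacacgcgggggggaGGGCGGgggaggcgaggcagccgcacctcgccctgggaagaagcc
Jup: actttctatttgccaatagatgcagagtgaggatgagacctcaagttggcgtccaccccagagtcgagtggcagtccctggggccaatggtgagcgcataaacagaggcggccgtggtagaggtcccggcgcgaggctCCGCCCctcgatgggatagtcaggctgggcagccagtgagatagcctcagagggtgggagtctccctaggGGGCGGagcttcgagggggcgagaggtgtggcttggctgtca
Gja1: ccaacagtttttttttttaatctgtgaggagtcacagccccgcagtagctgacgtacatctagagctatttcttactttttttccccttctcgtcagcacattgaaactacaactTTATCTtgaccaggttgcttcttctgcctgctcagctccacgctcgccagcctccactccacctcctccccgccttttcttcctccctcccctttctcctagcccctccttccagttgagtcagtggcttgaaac
Motifs were searched on both strands, and no matches overlapped in these 3 windows. The Dsp window was 72.4% G and C with 4 GC boxes, and the Jup window 62.0% with 2. The Gja1 window was 50.0% G and C, near the median of 52.4% over 32851 promoters, and held no GC box but 1 GATA match. The GC box, spelled GGGCGG, stood in 32.7% of all promoters of this length. The GATA match, spelled AGATAA, stood in 9.99% of them. None of the 3 windows shown held a TATA box (spelled TATAAA and found in 12.4% of all promoters), an M-CAT element (spelled CATTCC, in 12.6% of all) or an E-box (spelled CACGTG, in 6.02% of all). The Tjp1 window, not shown, was 63.2% G and C with 2 GC boxes. Ctnna3 had 3 listed starts, also not shown: a window of 67.6% G and C with 1 GC box, one of 44.8% with an M-CAT match and one of 45.6% with a TATA box match. A match is a description of the letters and not of a bound factor.

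Most of the set was lower on the obesogenic diet. In obese against control hearts, 8 of the 10 junction genes fell and 0 rose at an edgeR adjusted p under 0.05, where 15.7% of the 23779 genes tested fell and 14.4% rose. All 5 desmosomal genes fell, as did N-cadherin, the Xin repeat protein Xirp1 and connexin 43, by 1.49-fold to 2.23-fold. The genes that did not pass were Ctnna3 and Tjp1. The median log2 fold change was -0.71 over the 10 genes and 0.11 over all genes tested. The count of 8 came to 0 in a fit that also held the intronic share, and to 7 without the 3 libraries with high atrial markers. No junction gene passed in treated obese against obese hearts, and 6 of the 10 fell in treated obese against control hearts. Some markers of other cells also moved in obese against control hearts. The 8 smooth muscle and pericyte markers summed to 899 to 1214 CPM in obese and 1391 to 1591 CPM in control hearts. In treated obese hearts the sum was 744 to 1207 CPM. In obese against control hearts 2 of these 8 fell, and the median log2 fold change of the list was -0.03. The 6 adipocyte markers summed to 0.991 to 11.01 CPM in treated obese, 0.411 to 9.06 CPM in obese and 0.255 to 0.453 CPM in control hearts, and 4 of 6 rose in obese against control hearts. No marker of these 2 lists was at 0 in every library, and their part in the result was not tested. In whole-heart RNA, fewer cells of a type and less RNA per cell cannot be told apart.

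**Figure D1:**
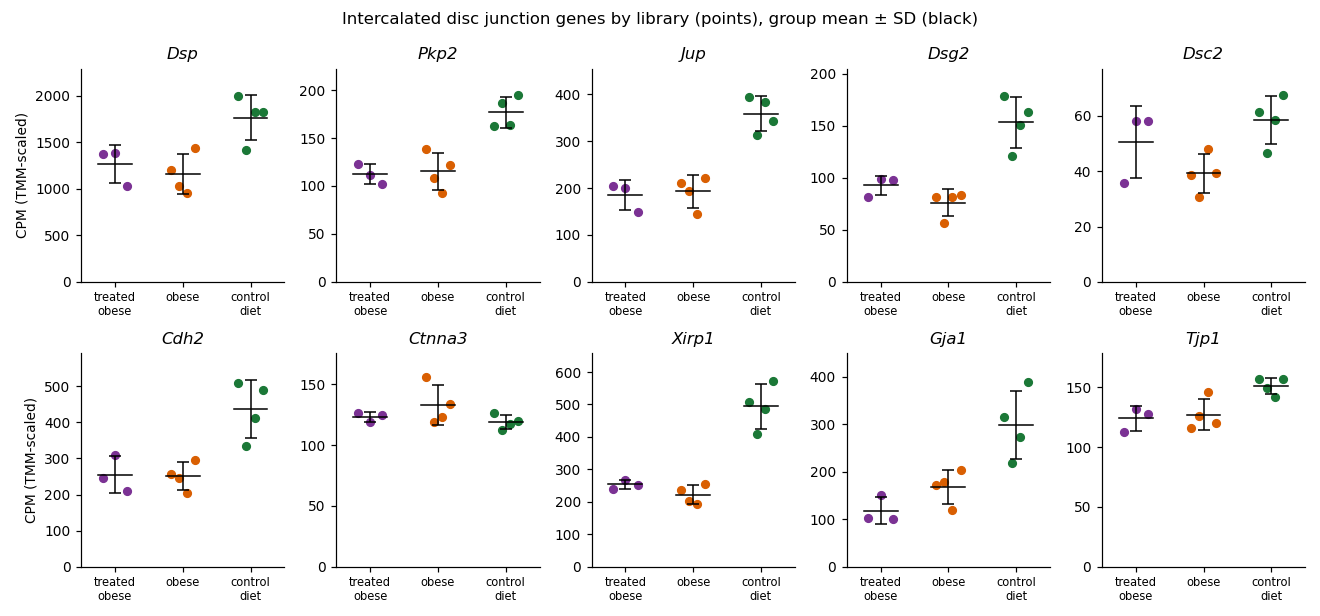
Level of each junction gene in CPM (vertical axes start at 0), with 1 point per library and black bars for the group mean ± SD; treated obese n = 3, obese n = 4, control diet n = 4. Control libraries stand above all obese libraries in 6 panels, including Xirp1 (obese 193 to 255 CPM, control 408 to 572 CPM), while the groups overlap in Ctnna3.

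Among the desmosomal plaque genes, Dsp encodes desmoplakin, which anchors desmin filaments to the junction, and it was the most abundant of the set per length. Dsp stood at 1376, 1387 and 1035 CPM in the treated obese libraries, 1202, 1027, 957 and 1439 CPM in the obese libraries and 1992, 1418, 1822 and 1828 CPM in the control libraries, in replicate order. Obese replicate 4 lay above control replicate 2, so these groups overlapped, whereas every treated obese library lay below every control library. Dsp fell 1.53-fold in obese against control hearts (log2 fold change -0.61, SE 0.17, edgeR adjusted p 0.0159). Without the 3 libraries with high atrial markers its log2 fold change was -0.53 (SE 0.18, edgeR adjusted p 0.0559), and it was -0.02 (SE 0.23, edgeR adjusted p 0.987) when the intronic share was also fitted.

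Pkp2 encodes plakophilin 2, an armadillo protein of the desmosomal plaque that also reaches the sodium channel and connexin 43 complexes. Its level was 123, 112 and 102 CPM in treated obese libraries, 138, 108, 93.2 and 121 CPM in obese libraries and 163, 186, 163 and 195 CPM in control libraries. Every treated and untreated obese library lay below the lowest control library. Pkp2 fell 1.53-fold with the obesogenic diet (log2 fold change -0.62, SE 0.13, edgeR adjusted p 0.0041).

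Jup encodes plakoglobin, the armadillo protein that desmosomes and adherens junctions share. It stood at 205, 201 and 148 CPM in treated obese libraries, 211, 195, 144 and 222 CPM in obese libraries and 395, 313, 384 and 342 CPM in control libraries. The gap between the highest obese and the lowest control library was wider than the whole range of the obese group. Jup fell 1.86-fold in obese against control hearts (log2 fold change -0.90, SE 0.16, edgeR adjusted p 0.00145).

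Dsg2 and Dsc2 are the desmosomal cadherins of heart muscle, whose outer domains meet across the cell gap. Dsg2 read 82.0, 98.5 and 98.0 CPM in treated obese libraries, 81.7, 56.7, 81.8 and 83.8 CPM in obese libraries and 179, 121, 151 and 163 CPM in control libraries. Obese replicate 2 stood apart below 3 closely spaced obese libraries, and no obese library reached a control library. Dsg2 fell 2.02-fold with diet (log2 fold change -1.01, SE 0.15, edgeR adjusted p 0.000632). Dsc2, the least abundant of the set per length, read 35.7, 58.3 and 58.1 CPM in treated obese libraries, 38.7, 30.8, 47.9 and 39.5 CPM in obese libraries and 61.5, 46.6, 58.4 and 67.6 CPM in control libraries. Obese replicate 3 lay just above control replicate 2, and treated replicates 2 and 3 lay within the control range. Dsc2 fell 1.49-fold in obese against control hearts (log2 fold change -0.58, SE 0.17, edgeR adjusted p 0.0246), and leaving out control replicate 1 or 4 or obese replicate 1 or 2 put that p between 0.0554 and 0.0739. The treated obese libraries with high Dsc2, replicates 2 and 3, were those with high atrial markers, as was the obese library with the highest Dsc2.

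In the adherens junction group, Cdh2 encodes N-cadherin, the classical cadherin of heart muscle. It stood at 247, 309 and 209 CPM in treated obese libraries, 258, 245, 204 and 296 CPM in obese libraries and 509, 335, 411 and 491 CPM in control libraries. The control group was spread widely, with replicate 2 lowest, but no obese library overlapped it. Cdh2 fell 1.74-fold with diet (log2 fold change -0.80, SE 0.17, edgeR adjusted p 0.00429).

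Xirp1 encodes an actin-binding Xin repeat protein that gathers at the disc, and it had the largest fall of the 10. Its level was 240, 268 and 253 CPM in treated obese libraries, 238, 201, 193 and 255 CPM in obese libraries and 509, 408, 487 and 572 CPM in control libraries. Each obese library, treated or not, held less Xirp1 than any control library. Xirp1 fell 2.23-fold in obese against control hearts (log2 fold change -1.16, SE 0.13, edgeR adjusted p 0.000213).

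Ctnna3 encodes αT-catenin, which binds plakophilin 2 and links the area composita to actin. It read 126, 119 and 125 CPM in treated obese libraries, 156, 119, 123 and 134 CPM in obese libraries and 126, 113, 118 and 120 CPM in control libraries. The groups overlapped, and obese replicate 1 was the highest library. Its log2 fold change with diet was 0.16 (SE 0.10, edgeR adjusted p 0.265). Ctnna3 is by far the longest gene of the set, at 1573.6 kb, and Gm10118 and Lrrtm3 lie in its introns on the other strand with counts equal to 9.37% and 12.7% of its own. In the annotation used here no exon of either gene overlaps an exon of Ctnna3, so position separates their exonic reads. The sources used here do not state the annotation or the use of strand in counting, so the counting itself could not be checked.

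Gja1 encodes connexin 43, the main gap junction channel of the ventricle. Levels were 103, 152 and 100.3 CPM in treated obese libraries, 172, 177, 120 and 203 CPM in obese libraries and 315, 218, 273 and 389 CPM in control libraries. Control libraries were widely spread, yet the lowest of them exceeded the highest obese library. Gja1 fell 1.78-fold with diet (log2 fold change -0.83, SE 0.21, edgeR adjusted p 0.00946). With the intronic share as a covariate its log2 fold change turned to 0.18 (SE 0.20, edgeR adjusted p 0.766).

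Tjp1 encodes ZO-1, the scaffold that binds the tail of connexin 43 at the edge of gap junction plaques. It read 112, 132 and 128 CPM in treated obese libraries, 116, 126, 146 and 121 CPM in obese libraries and 157, 149, 142 and 157 CPM in control libraries. Obese replicate 3 alone entered the control range. The log2 fold change with diet was -0.25 (SE 0.10, edgeR adjusted p 0.0841), it was 0.18 when libraries were scaled by their totals only, and without obese replicate 3 it was -0.32 with an adjusted p of 0.0376. Tjp1 also passed with DESeq2 (adjusted p 0.0239) and with the atrial marker level as a covariate (edgeR adjusted p 0.025).

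Per kilobase of exon, the order of levels differed little between groups at its ends. Dsp led at 131 ± 20.7 CPM per kb in treated obese (SD, n = 3), 120 ± 22.2 in obese (SD, n = 4) and 183 ± 25.3 in control hearts (SD, n = 4), with Xirp1 next at 43.4 ± 2.40, 38.0 ± 5.01 and 84.6 ± 11.7 CPM per kb in the same groups. Dsc2 was last in all 3 groups, at 9.61 ± 2.46, 7.43 ± 1.32 and 11.1 ± 1.67 CPM per kb. Between them, Jup and Cdh2 stood within their spreads of each other in every group, at 28.7 ± 4.92 and 31.6 ± 6.27 CPM per kb in treated obese hearts and 55.7 ± 5.89 and 54.1 ± 9.92 CPM per kb in control hearts. Gja1 and Ctnna3 changed places: Gja1 stood at 11.5 ± 2.85 CPM per kb and Ctnna3 at 17.0 ± 0.532 in treated obese hearts, while in control hearts Gja1 stood at 29.1 ± 7.02 and Ctnna3 at 16.5 ± 0.788. In obese hearts these 2 genes lay within their spreads, at 16.4 ± 3.42 for Gja1 and 18.4 ± 2.27 CPM per kb for Ctnna3.

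The spread among libraries followed particular libraries. Control replicate 2 was the lowest control library for 8 of the 10 genes and had the highest intronic share of its group. Obese replicate 3 was the lowest obese library for 6 genes and had the highest intronic share of all libraries, at 0.811%, while obese replicate 4, with the lowest share of the obese group, was highest for 6. The part of the intronic share in these differences was not tested beyond the covariate fit. With that share as a covariate, 0 of the 10 genes passed in obese against control hearts, against 8 without it, with edgeR adjusted p values from 0.125 for Xirp1 to 0.998 for Cdh2, and 121 of all genes tested passed, against 7166 (30.1%) without it. The log2 fold changes in that fit were -0.69 for Xirp1 (SE 0.18), -0.63 for Dsg2 (SE 0.26), -0.55 for Pkp2 (SE 0.23), -0.45 for Jup (SE 0.24) and -0.27 for Dsc2 (SE 0.34), while those of Dsp, Cdh2 and Gja1 were -0.02, 0.00 and 0.18. Every obese library had a higher intronic share than every control library, so this fit can separate the share and the diet only through differences within groups.

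The background share of lower genes varied with abundance and length. Among 7832 protein-coding genes with a mean of at least 10 CPM, 35.8% fell and 9.97% rose with diet. The share that fell was 44.2% of those spanning under 30 kb, 31.2% of those spanning 30 to 100 kb and 20.3% of those over 100 kb, with median log2 fold changes of -0.31 under 30 kb and 0.02 over 200 kb. Xirp1, Gja1, Jup and Dsc2 span under 30 kb (9.8 to 28.9 kb), and 4 of 4 fell. Dsp, Pkp2 and Dsg2 span 46.4 to 59.4 kb, and 3 of 3 fell. Of the 3 longest, Tjp1 (231.6 kb), Cdh2 (220.4 kb) and Ctnna3, Cdh2 alone fell, in a class over 200 kb where 16.1% fell. Groups that did not overlap, with obese below control, were seen for 6 of the 10 genes and for 14.7% of all genes tested.

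**Figure D2:**
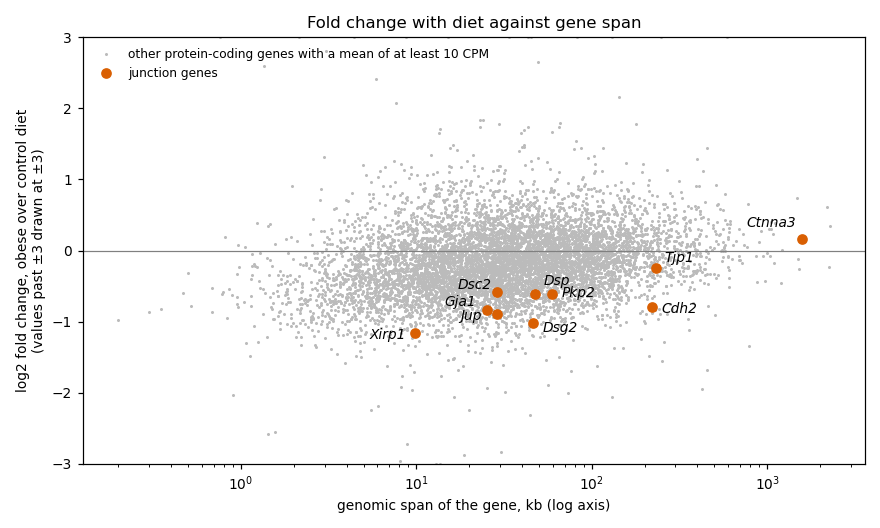
Log2 fold change of obese over control diet (vertical axis, values past 3 in either direction drawn at the edge) against genomic span in kb (log axis) for protein-coding genes with a mean of at least 10 CPM (grey) and the 10 junction genes (orange). The median of all such genes is -0.31 under 30 kb and 0.02 over 200 kb; Xirp1 (9.8 kb, -1.16) is the lowest junction gene and Ctnna3 (1573.6 kb, 0.16) the highest.

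The scaling of libraries set the size of these changes. Scaling by TMM (trimmed mean of M-values) gave factors of 1.05 to 1.20 in treated obese, 1.02 to 1.19 in obese and 0.733 to 0.954 in control libraries, where genes of the mitochondrial chromosome took 17.8% to 22.4%, 21.4% to 24.5% and 28.2% to 32.3% of counts. Without such factors the junction genes' share of all counts was 0.270% to 0.310% in treated obese, 0.250% to 0.297% in obese and 0.316% to 0.346% in control hearts, still with no overlap between control and the others. Scaled by totals only, the median of all genes moved from 0.107 to 0.527 on the log2 scale, the calls over all genes became 90.4% higher against 47.9% with TMM, and 4 junction genes fell (Jup, Dsg2, Cdh2 and Xirp1) while Ctnna3 rose (log2 fold change 0.58, edgeR adjusted p 0.00124). Upper-quartile scaling made 59.9% of calls higher and kept 8 genes lower, and scaling by cardiomyocyte markers made 64.7% higher and kept 7, losing Dsc2. The direction of the 8 called genes was lower under all 5 other scalings tried.

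Against obese hearts, the senolytic cocktail left the set without a call. Of the 10 genes, 0 passed in treated obese against obese hearts, as did 0% of the 23779 genes tested by edgeR, while DESeq2 called 131 genes, none of them a junction gene, and edgeR called 24 genes without obese replicate 3. At an unadjusted p under 0.05 stood 1 of the 10 junction genes, Gja1, and 10.2% of all genes tested. The groups overlapped for all 10 genes, while 5.45% of all genes had treated libraries below and 4.68% had them above every obese library. The median log2 fold change was 0 over the 10 genes and -0.01 over all genes. This contrast shares the obese libraries with the diet contrast, so the values of both are given side by side and no likeness between them was computed.

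Gja1 had a log2 fold change of -0.51 in treated obese against obese hearts (SE 0.22, unadjusted p 0.0404, edgeR adjusted p 0.478), beside -0.83 with diet. Treated replicates 1 and 3 lay below all 4 obese libraries, and treated replicate 2 lay above obese replicate 3. Dsc2 and Dsg2 had the largest positive values, 0.37 (SE 0.19, edgeR adjusted p 0.521) and 0.29 (SE 0.16, edgeR adjusted p 0.551), beside -0.58 and -1.01 with diet. Without the 3 libraries with high atrial markers, which leaves 1 treated library, the Dsc2 value was -0.01. For the other 7 genes the log2 fold changes ran from -0.11 for Ctnna3 to 0.19 for Xirp1, with standard errors of 0.11 to 0.18, and their edgeR adjusted p values were 0.647 or higher.

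**Figure D3:**
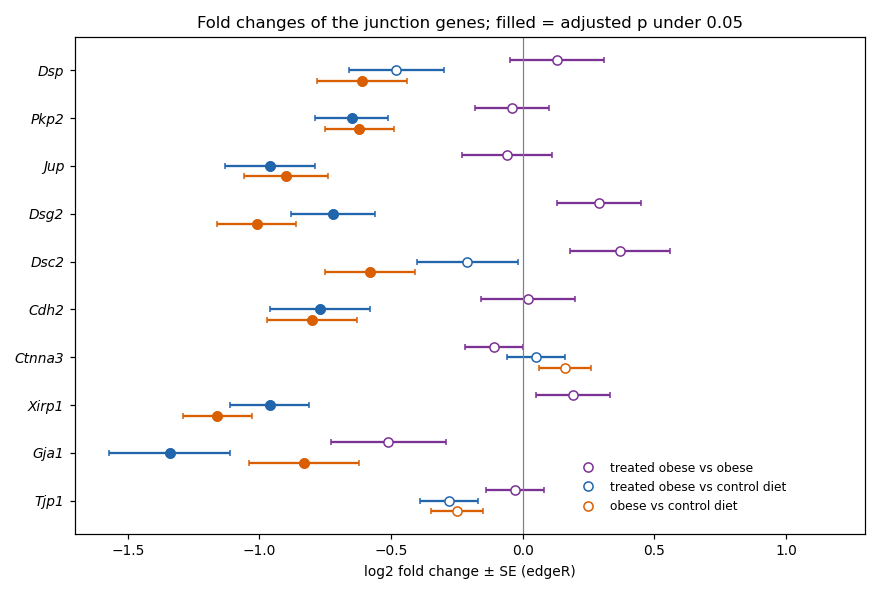
Log2 fold change (horizontal axis) ± SE from edgeR for each junction gene: treated obese over obese (purple), treated obese over control diet (blue) and obese over control diet (orange); filled points have an adjusted p under 0.05. No purple point is filled, and Gja1 has the lowest purple and blue values, -0.51 and -1.34.

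In treated obese against control hearts, 6 of the 10 genes fell and 0 rose, where 8.39% of all genes tested fell and 7.43% rose, and 19.4% of the protein-coding genes above 10 CPM fell. Gja1 fell 2.52-fold (log2 fold change -1.34, SE 0.23, edgeR adjusted p 0.00359), and every treated library lay below the lowest control library. Jup and Xirp1 fell 1.94-fold and 1.95-fold (log2 fold changes -0.96 and -0.96, edgeR adjusted p 0.00428 and 0.00199). Cdh2 fell 1.71-fold, Dsg2 1.65-fold and Pkp2 1.57-fold, with edgeR adjusted p values of 0.0165, 0.0128 and 0.0106. The Pkp2 and Cdh2 calls were lost without treated replicate 3, at adjusted p values of 0.0647 and 0.091. They were also lost with the atrial marker level as a covariate, at edgeR adjusted p values of 0.0661 and 0.0801. Scaling by totals only lost Pkp2, Cdh2 and Dsg2 (edgeR adjusted p 0.161, 0.0614 and 0.132). Ctnna3 rose by 0.47 on the log2 scale under that scaling (edgeR adjusted p 0.0075). Dsp had a log2 fold change of -0.48 (SE 0.18, edgeR adjusted p 0.0887; 0.0333 without control replicate 2, 0.048 with cardiomyocyte marker scaling and 0.0329 with DESeq2), Tjp1 of -0.28 (SE 0.11, adjusted p 0.102; 0.0371 with DESeq2 and 0.0436 with the atrial covariate), Dsc2 of -0.21 (SE 0.19, adjusted p 0.475) and Ctnna3 of 0.05 (SE 0.11, adjusted p 0.804). The Dsc2 value was -0.57 with the atrial covariate (edgeR adjusted p 0.0633), -0.70 without the 3 libraries with high atrial markers (adjusted p 0.118) and 0.24 with totals only. Treated libraries lay below every control library for 8 of the 10 genes, the exceptions being Dsc2 and Ctnna3, and for 14.1% of all genes tested. Without the 3 libraries with high atrial markers, Gja1 was the 1 junction gene that passed, with 1 treated library left and assumed to vary like the other groups. The calls lost there had log2 fold changes of -1.03 for Xirp1, -0.89 for Dsg2, -0.81 for Cdh2, -0.80 for Jup and -0.51 for Pkp2, with edgeR adjusted p values of 0.064 to 0.183. With the intronic share as a covariate, Xirp1 and Gja1 passed.

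Ratios of counts between paired genes within a library do not depend on library scaling. The ratio of Gja1 to Cdh2, the gap junction channel to the cadherin beside it, was 0.463 ± 0.0410 in treated obese (SD, n = 3), 0.666 ± 0.0577 in obese (SD, n = 4) and 0.682 ± 0.0768 in control hearts (SD, n = 4). Every treated library, at 0.416 to 0.492, lay below every obese library, at 0.587 to 0.724, and every control library, at 0.618 to 0.793. The log2 difference was -0.53 (SE 0.10) from obese and -0.56 (SE 0.11) from control hearts, each with an exact 2-sided permutation p of 0.0571, the smallest that 3 against 4 libraries can give. Between obese and control hearts the difference was -0.03 (SE 0.10, exact permutation p 0.8), and the groups overlapped. Over the 15 ratio tests no Benjamini-Hochberg adjusted value was below 0.0952, which was the adjusted value of both treated contrasts of Gja1 to Cdh2. At these group sizes no adjusted value of a ratio could have been under 0.05, whatever the data.

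The other 4 ratios set a junction gene against a relative or partner. Xirp1 to Xirp2, its fellow Xin repeat gene, was 0.245 ± 0.0184 in treated obese (SD, n = 3), 0.251 ± 0.0497 in obese (SD, n = 4) and 0.571 ± 0.0488 in control hearts (SD, n = 4), and neither obese group overlapped control. Dsg2 to Dsc2 was 1.89 ± 0.349 in treated obese, 1.95 ± 0.205 in obese and 2.62 ± 0.204 in control hearts. Jup to Ctnnb1, plakoglobin to β-catenin, was 0.729 ± 0.107 in treated obese, 0.866 ± 0.115 in obese and 1.15 ± 0.152 in control hearts. The order was the other way for Ctnna3 to Ctnna1, the αT-catenin to the αE-catenin, at 0.505 ± 0.0727 in treated obese, 0.563 ± 0.0658 in obese and 0.383 ± 0.0435 in control hearts. In obese against control hearts these 4 ratios differed by -1.21, -0.43, -0.41 and 0.55 on the log2 scale, in the order given. The groups did not overlap, though for Jup to Ctnnb1 the highest obese library (0.959) nearly met the lowest control library (0.96). Each ratio had an exact 2-sided permutation p of 0.0286, the smallest that 4 against 4 can give, and an adjusted value of 0.0952. The share of other gene pairs without overlap was not computed.

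**Figure D4:**
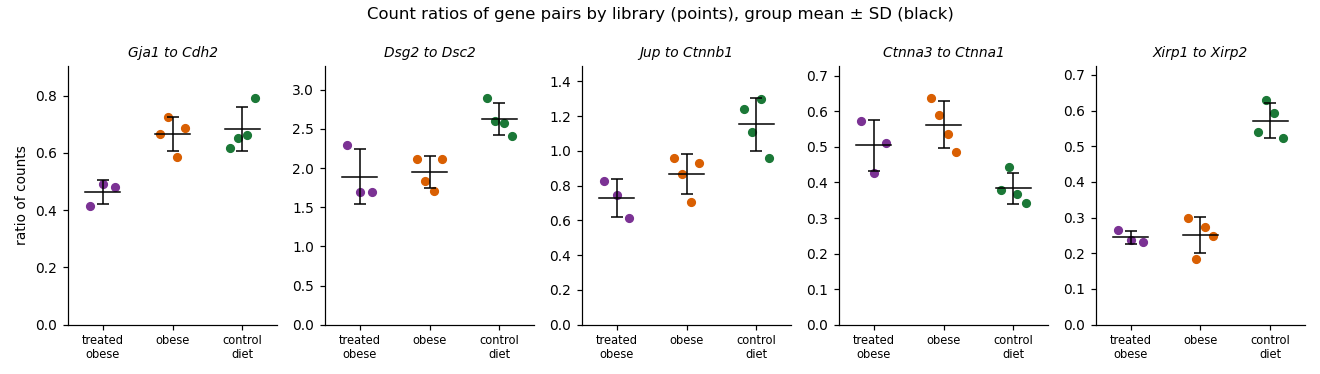
Ratio of counts within each library (points; vertical axes start at 0) for 5 gene pairs, with group mean ± SD in black; treated obese n = 3, obese n = 4, control diet n = 4. The Gja1 to Cdh2 ratio of the 3 treated libraries (0.416 to 0.492) lies below both other groups, and the Xirp1 to Xirp2 ratio of the control libraries (0.523 to 0.629) lies above both.

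Related genes were read from 5 partner lists, which reach past the disc to epithelial genes such as Evpl and Ppl. The lists hold 57 genes, chosen with earlier results of these data known. Of these, 54 were tested, and Pkp1, Dsc1 and Dsc3 were not, for low counts. In obese against control hearts 22 fell and 2 rose, where 15.7% of all genes tested fell and 14.4% rose, and 35.8% of the protein-coding genes above 10 CPM fell. The median over the 54 was -0.31 on the log2 scale. Medians of protein-coding genes above 10 CPM ran from -0.31 for spans under 30 kb to 0.02 for spans over 200 kb. The 24 calls came to 0 in a fit that also held the intronic share and to 14 with cardiomyocyte marker scaling. The median of each list was negative, from -0.51 for desmosome and filament genes to -0.15 for channels and anchors, and -0.71 for the 10 junction genes.

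**Figure D5:**
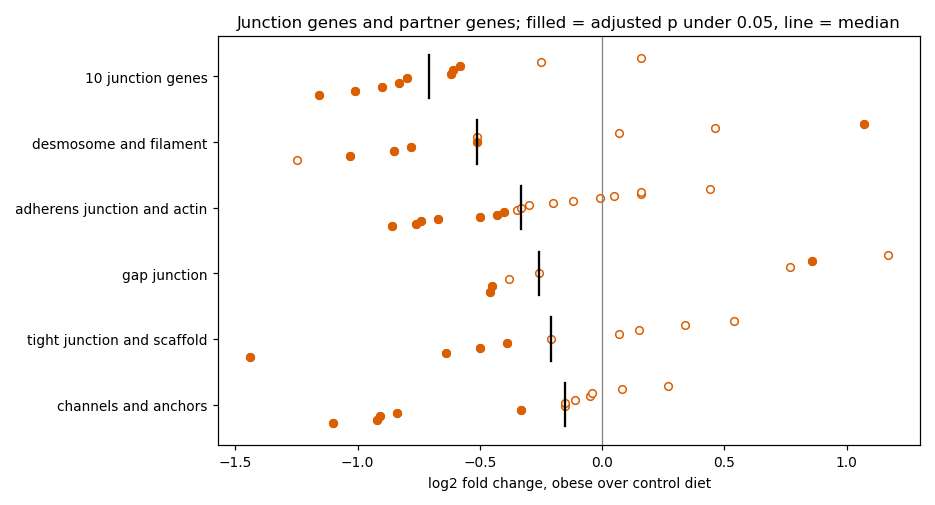
Log2 fold change of obese over control diet (horizontal axis) for the 10 junction genes and 5 lists of partner genes, 1 point per gene; filled points have an edgeR adjusted p under 0.05 and vertical lines are medians. Medians run from -0.71 for the junction genes to -0.15 for channels and anchors.

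Of 9 desmosome and filament partners tested, 4 fell and 1 rose with diet. The background share that fell was 15.7% of all genes tested and 35.8% of protein-coding genes above 10 CPM. Des, the desmin filament that desmoplakin holds, averaged 525 ± 48.5 CPM in obese and 1068 ± 167 CPM in control hearts (SD, n = 4 each; log2 fold change -1.03, edgeR adjusted p 0.000375). Pkp4, a plakophilin relative, fell by 0.85 and Perp, a tetraspan protein of desmosomes in mouse epithelium, fell by 0.78 on the log2 scale (edgeR adjusted p 0.000797 and 0.00477). Evpl, which encodes envoplakin of the epithelial cornified envelope, rose by 1.07 (adjusted p 0.0103) but stayed low, at 2.61 ± 0.729 CPM in obese and 1.24 ± 0.169 CPM in control hearts (SD, n = 4 each).

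Of 17 adherens and actin partners, 7 fell and 0 rose, beside the 35.8% of protein-coding genes above 10 CPM that fell. Actn2, the α-actinin of heart muscle Z-discs, averaged 936 ± 140 CPM in obese and 1696 ± 287 CPM in control hearts (SD, n = 4 each; log2 fold change -0.86, edgeR adjusted p 0.00186). Nectin2, a cell adhesion molecule, fell by 0.76, Ctnnb1 by 0.50 and Ldb3, another Z-disc gene, by 0.67 (adjusted p 0.00186, 0.00492 and 0.00677). Among 7 gap junction partners, Tmem65, a disc protein needed for connexin 43 placement in mice, fell by 0.46 and Gja4, connexin 37, fell by 0.45 (adjusted p 0.0342 and 0.0394), while Panx1, a pannexin channel at 2.13 ± 0.647 CPM in obese and 1.18 ± 0.174 CPM in control hearts (SD, n = 4 each), rose by 0.86 (adjusted p 0.0253).

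Of 9 tight junction and scaffold partners, 4 fell, beside the 35.8% of protein-coding genes above 10 CPM that fell. Cldn5, claudin 5, fell by 1.44, F11r, a junctional adhesion molecule, fell by 0.64 and Magi1, a scaffold protein, fell by 0.39 on the log2 scale (edgeR adjusted p 0.000342, 0.00244 and 0.0176). Cldn5 is also an endothelial gene, and the 8 endothelial markers summed to 696 to 756 CPM in treated obese, 721 to 887 CPM in obese and 906 to 1065 CPM in control hearts, with 3 of 8 fallen in obese hearts and none at 0; their part in the Cldn5 result was not tested. Of 12 channel and anchor partners, 5 fell and 0 rose, beside the same background share of 35.8%. Popdc2 and Popdc3, cAMP-binding Popeye proteins, fell by 1.10 and 0.92, Kcnj2, the inward rectifier channel Kir2.1, by 0.84 and Fgf13, a sodium channel partner, by 0.91 (adjusted p 0.000919, 0.000806, 0.00193 and 0.00339).

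In treated obese against obese hearts 0 of the 54 partners passed with edgeR, and 6 had an unadjusted p under 0.05, against 10.2% of all genes tested. DESeq2 called 1 of them, Perp, which averaged 56.7 ± 10.9 CPM in treated obese (SD, n = 3) and 33.5 ± 5.77 CPM in obese hearts (SD, n = 4), without overlap (log2 fold change 0.76, SE 0.18, edgeR adjusted p 0.354). The smallest p in the other lists were those of Afdn at -0.40 (adjusted p 0.402), Gjc1 at -0.31 (0.418), F11r at 0.27 (0.509) and Popdc3 at 0.30 (0.523), given as edgeR log2 fold changes. Mesothelial and epithelial markers, which carry desmosomal genes of their own, summed to 7.41 to 44.7 CPM in treated obese, 8.39 to 15.1 CPM in obese and 5.08 to 7.04 CPM in control hearts, no marker of that list was at 0 in every library, and their part in the Perp value was not tested.

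Against control hearts, 15 of the 54 partners fell and 4 rose in treated obese hearts, where 8.39% of all genes tested fell and 7.43% rose, and 19.4% of the protein-coding genes above 10 CPM fell. The count of 19 called partners came to 3 without treated replicate 3, and to 6, 11 and 7 without control replicates 1, 3 and 4. Des fell by 0.61 and Pkp4 by 0.47 on the log2 scale, while Ppl, which encodes periplakin of epithelial desmosomes, rose by 1.35 (edgeR adjusted p 0.0177, 0.0445 and 0.014). Ppl stood at 21.1, 32.7 and 31.4 CPM in treated obese libraries and 10.2, 11.1, 14.5 and 8.88 CPM in control libraries; 4 of the 9 mesothelial and epithelial markers tested rose in the same contrast, and their part was not tested. Nectin1 rose by 0.79, and Nectin2, Lmo7 and Nrap, which link to the actin of the disc, fell by 0.54, 0.58 and 0.67 (adjusted p 0.0221, 0.0291, 0.0334 and 0.0386). Nectin1 read 6.86, 12.1 and 13.0 CPM in treated obese libraries and 5.99, 5.99, 7.49 and 5.23 CPM in control libraries; treated replicate 1 lay within the control range, and the 2 higher libraries were those with high atrial markers. Gja5, connexin 40 of atrial and conduction muscle and vessels, read 7.04, 22.8 and 24.4 CPM in treated obese libraries and 6.58, 8.32, 6.06 and 5.59 CPM in control libraries (log2 fold change 1.45, adjusted p 0.0274). Its 2 high libraries were the treated libraries with high atrial markers, and treated replicate 1 lay within the control range.

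The other lists are given for the same contrast, which shares its control libraries with the diet contrast. Gjc1, connexin 45, fell by 0.57 and Tmem65 by 0.52, while Panx1 rose by 0.93 on the log2 scale (edgeR adjusted p 0.00829, 0.0466 and 0.0399). Cldn5 fell by 1.75 and Magi1 by 0.52 (adjusted p 0.000517 and 0.0141). Popdc2 fell by 0.91, Fgf13 by 0.85, Kcnj2 by 0.67 and Popdc3 by 0.62 (adjusted p 0.00937, 0.0163, 0.0191 and 0.0204).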

How the data were processed

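RNA sequencing covered 11 heart libraries. The authors deposited whole-number counts per Ensembl gene identifier, and the submitters' processing notes name cutadapt, HISAT2, StringTie and the build GRCm38. The sources used here do not give versions, the annotation, the use of strand, or whether the counts are reads or estimates from coverage. Symbols, positions and gene types came from a GENCODE annotation of GRCm38, which named 55227 of 55487 identifiers; promoters came from RefSeq.

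Genes were filtered with filterByExpr (minimum count 10, minimum total 15), leaving 23779, scaled by TMM and fitted with edgeR 4.0.16 (quasi-likelihood, robust) in R 4.3.3, with 11 libraries in 1 model of 3 groups. P-values were adjusted by Benjamini-Hochberg over all genes tested, with a threshold of 0.05. Standard errors were derived from the log2 fold change and its F statistic. CPM used TMM-scaled library sizes. Ratios of counts, with 1 added, were compared by exact 2-sided permutation in Python 3.11.15 (scipy 1.17.1). The edgeR fit was tested on simulated data.

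The 10 genes, the partner and marker lists and the alternatives were chosen with earlier results of these data known. All 10 genes are named in each contrast; of each partner list, up to 4 called genes with the smallest p are named, or the 1 with the smallest p where none passed. A gene that this rule takes is not reported here. Alternatives were other scalings and filters, fits of 2 groups, a replicate block, DESeq2 1.42.0, limma voom 3.58.1, the intronic share or the atrial marker level as a covariate, and leaving out libraries.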

Additional observations from a re-analysis of the deposited data

Results flagged for a closer look

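The Dsg2 level of obese replicate 2 stood apart from its group. It was 56.7 CPM, against 81.7, 81.8 and 83.8 CPM in the other obese libraries. The gap to the nearest library was 0.936 of the group's range, taken on log2 values of CPM with 1 added. That was above Dixon's 95% critical value for 4 libraries. The check ran over 20 groups of 4 libraries, and chance alone flags about 1 in 20.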

How the results depend on the processing

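Deviations from group means correlated at 0.399, 0.069 and 0.336 between same-numbered treated and obese replicates. Differently numbered treated and obese replicates gave -0.408 to 0.192, and same-numbered pairs with a control library -0.232 to 0.122. These values do not settle whether the numbers pair libraries. A replicate block gave 8, 0 and 6 junction genes in obese against control, treated obese against obese and treated obese against control hearts. Contrasts follow that order below. With the intronic share as a covariate, calls were 0, 0 and 2 for junction genes, 0, 0 and 1 for partners and 121, 0 and 510 for all genes. Library totals only gave 5 junction genes in the first contrast and 7300 genes in the third. Cardiomyocyte marker scaling gave 14 partners in the first, and 8 partners and 1679 genes in the third. The atrial covariate gave 6 partners in the third. Without the 3 libraries with high atrial markers, 5 genes were called in the second contrast, and 1 junction gene, 1 partner and 378 genes in the third; the log2 ratio of Gja1 to Cdh2 was -0.73 in the second and that of Dsg2 to Dsc2 was -0.19 in the third. In the second contrast DESeq2 called 1 partner and 131 genes, and upper-quartile scaling and no filter 2 genes each. The causes were not tested.

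Signs turned as follows. In obese against control hearts Gja1 was 0.18 with the intronic covariate and Tjp1 0.18 with totals only. In treated obese against control hearts Dsc2 was 0.24 and Tjp1 0.14 with totals only. In treated obese against obese hearts, where no call was made, Dsp was -0.10 and Cdh2 -0.29 with the intronic covariate; Pkp2 was 0.01 with the block, 0.06 with the atrial covariate and 0.01 without the 3 libraries; Jup was 0.06 with the atrial covariate; Dsc2 was -0.01 without the 3 libraries; and Cdh2 was -0.02, -0.04 and -0.10 with upper-quartile scaling, cardiomyocyte scaling and without the 3 libraries.

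Leaving out 1 library at a time gave 7 to 9, 0 to 0 and 4 to 7 junction genes, 18 to 26, 0 to 0 and 3 to 21 partners, and 4917 to 8153, 0 to 24 and 1011 to 4652 genes. In treated obese against obese hearts the range crossed 0 for Pkp2 (-0.12 to 0.06), Jup (-0.18 to 0.08), Cdh2 (-0.14 to 0.15) and Tjp1 (-0.08 to 0.04). No other fold change of a junction gene changed sign under the settings tried, although Cdh2 was 0.00 with the intronic covariate in obese against control hearts. Over settings that kept the full groups or left out those 3 libraries, 13 and 14 single-gene calls were lost with their sign kept and 3 and 5 gained in the first and in the third contrast, and in the first that of Gja1 was lost as well, with its sign turned. Counting error limited no junction gene, the lowest count being 1961.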
